A study of Mus musculus with 12 samples.

Results

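The data concern the probes that a mouse lncRNA and mRNA array carries under humanlincRNA numbers, taken here as probes for mouse counterparts of human long intergenic non-coding RNAs (lincRNAs). All probes whose name starts with humanlincRNA were taken, 1092 of the 60641 probes of the array, and they come from 557 numbered regions. The names end in a plus sign in 542 probes and in a minus sign in 550, and 535 regions have a probe for each strand. Names alone mark these probes as counterparts of human transcripts, and no human sequence was compared here. Primary mouse aortic smooth muscle cells (MASMC) received non-target siRNA (siNT) or siRNA against Oct4 (siOCT4) for 48 hours in serum-free medium and were then given either 10 μg/mL of the oxidized phospholipid POVPC or its vehicle DMSO for 24 hours. Each siRNA was combined with each treatment, so there are 4 groups (siNT-DMSO and siNT-POVPC, siOCT4-DMSO and siOCT4-POVPC), of 3 arrays each, with 1 dye and 1 sample per array. No probe could be named for Pou5f1, the Oct4 gene, and the arrays therefore give no check of the siRNA. The labels number the replicates but do not say whether they are separate cultures, so p-values measure the spread between these arrays, which may be technical.

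LincRNAs are transcribed from stretches of the genome between protein-coding genes, and most are kept at lower levels and in fewer cell types than mRNAs. Some act on the chromatin or transcription of neighboring genes, others act away from their own locus by binding proteins or other RNAs, and for many no function is known. OCT4 is a transcription factor of pluripotent stem cells that has also been studied in vascular smooth muscle. POVPC is formed when phospholipids of low density lipoprotein are oxidized, and smooth muscle cells exposed to it lower their contractile genes.

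The supplementary annotation of the study gives a probe sequence and a locus for 9 of the 1092 probes, which the authors selected for a rise with POVPC in siNT cells. They are shown because they are the humanlincRNA probes that can be placed in the genome here. The 60-base probes are written from 5′ to 3′ in lower case.
humanlincRNA1110-: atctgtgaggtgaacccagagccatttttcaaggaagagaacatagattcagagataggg
humanlincRNA2144-: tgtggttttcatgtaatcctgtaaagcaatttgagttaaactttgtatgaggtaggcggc
humanlincRNA0696+: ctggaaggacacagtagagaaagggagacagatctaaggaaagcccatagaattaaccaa
humanlincRNA0539+: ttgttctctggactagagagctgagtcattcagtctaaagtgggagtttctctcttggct
humanlincRNA2259-: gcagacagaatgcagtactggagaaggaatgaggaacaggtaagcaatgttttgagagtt
humanlincRNA1893+: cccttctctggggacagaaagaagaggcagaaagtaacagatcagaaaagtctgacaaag
humanlincRNA0052+: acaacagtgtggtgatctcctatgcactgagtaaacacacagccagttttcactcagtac
humanlincRNA1756+: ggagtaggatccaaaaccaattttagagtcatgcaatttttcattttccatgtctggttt
humanlincRNA1395+: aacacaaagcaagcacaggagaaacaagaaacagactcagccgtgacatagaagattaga
The share of G and C in these 9 probes ran from 35.0% to 45.0%.

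The annotation does not state the genome build of these loci, and the scanner headers name mm9. Its coordinates fitted GRCm38, since 826 of 827 mRNAs that the study lists with a symbol overlapped the gene of that symbol in RefSeq of GRCm38.p6. The 9 loci span 9261 to 44386 bases each, and the annotation calls all of them intergenic. None overlapped a protein-coding gene of RefSeq. HumanlincRNA1110- lies on the minus strand at chr2:129388433-129414490, 17.3 kb from Il1b, which encodes the cytokine interleukin 1 beta. HumanlincRNA2144- lies on the minus strand at chr8:35691334-35700594, 11.9 kb from Mfhas1. HumanlincRNA0539+ lies on the plus strand at chr5:120002091-120035286, between Tbx5, a transcription factor of heart and forelimb, at 117 kb and Rbm19 at 81.2 kb, and it overlaps the lncRNA Gm42019. Far from any protein-coding gene, humanlincRNA0052+ at chr3:147737095-147761636 on the plus strand has Ttll7 at 753 kb and Adgrl2 at 1050 kb as neighbors. The others were humanlincRNA0696+ at chr12:60866285-60894203 between Gm32936 and Lrfn5, humanlincRNA2259- at chr15:49596763-49607722 between Csmd3 and Trps1, humanlincRNA1893+ at chr17:45229357-45240933 between Supt3 and Cdc5l, humanlincRNA1756+ at chr17:62127696-62172081 between Nudt12 and Efna5, and humanlincRNA1395+ at chr6:95192892-95204855 between Kbtbd8 and Suclg2. No array probe could be named for any of these neighbors, so their levels are not given.

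One array stood apart before any comparison. In siOCT4-DMSO replicate 3, 13.3% of the tested humanlincRNA probes differed by over 1 log2 unit from the mean of the other 2 arrays of its group, against 2.36% to 8.20% on the other 11 arrays. Its correlation with either array of its group was 0.945 over these probes, which was the lowest within any group. It was also the only siOCT4-DMSO array on slide 2, which held the 3 siOCT4-POVPC arrays, while slide 1 held all siNT arrays and siOCT4-DMSO replicates 1 and 2. In POVPC, the knockdown and the slide therefore cannot be told apart except through this array. The slide of this and every other array was taken from the scan, so a slide here means arrays scanned together. Several results that rest on siOCT4-DMSO replicate 3 are also given without it.

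As a class, humanlincRNA probes were dimmer and less often detected than the other lncRNA probes of the array. A probe was called detected on an array where the scanner software marked it as well above background. Of the humanlincRNA probes, 561 (51.4%) were detected on all 12 arrays, 245 on 3 to 11, 81 on 1 or 2, and 205 (18.8%) on none. The 639 probes named mouselincRNA, the most similar class on the array, gave 53.4% and 17.4% on all and on none of the arrays. Among the 36551 remaining lncRNA probes these shares were 74.6% and 6.42%, and among the 22359 mRNA probes 81.3% and 4.71%. The median normalized log2 signal of the humanlincRNA probes was 4.58 (quartiles 2.88 and 6.10), beside 4.72 for mouselincRNA, 6.18 for other lncRNA and 6.84 for mRNA probes. Differences between classes are a description, since probes differ in sequence and length of target.

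Detection was lowest in siOCT4-POVPC, in every class. On the 3 siOCT4-POVPC arrays 57.8%, 57.1% and 59.2% of the humanlincRNA probes were detected, below each of the other 9 arrays. The shares were 68.4%, 65.7% and 64.7% in siOCT4-DMSO, 66.2%, 68.2% and 71.4% in siNT-DMSO, and 74.1%, 67.5% and 76.4% in siNT-POVPC. Mean detection was 58.1% ± 1.08 in siOCT4-POVPC and 72.6% ± 4.61 in siNT-POVPC (SD, n = 3), and an exact two-sided permutation test gave p = 0.1, the smallest that 3 against 3 arrays allow. Over both treatments the difference between the 6 siOCT4 and the 6 siNT arrays was -8.47 percentage points (exact two-sided permutation test, p = 0.0108), with ranges that overlapped, 57.1% to 68.4% against 66.2% to 76.4%. That test exchanged arrays across DMSO and POVPC and across the slides, so its p does not isolate the knockdown. Within DMSO alone the difference was -2.35 points (exact two-sided permutation test, p = 0.3). With 5 comparisons in each of 4 classes 20 such tests were made. After Benjamini-Hochberg adjustment over them the exact p of the 6 against 6 comparison was 0.054, which misses the threshold. The siOCT4-DMSO array on the slide of the siOCT4-POVPC arrays had 64.7%, between them and the next array with 65.7%. In mouselincRNA probes it also lay between them and the rest, with 67.3%. In other lncRNA and mRNA probes it had 84.7% and 88.4%, above siOCT4-DMSO replicate 2 with 83.3% and 87.9%. The same 6 against 6 comparison gave -8.32 points for mouselincRNA, -5.05 for other lncRNA and -3.66 for mRNA probes. The weakest signals that were marked well above background lay at 11.2 to 11.6 intensity units on the siOCT4-POVPC arrays and at 8.73 to 15.1 on the others, before normalization. After normalization those lowest detected values were 3.99 to 4.06 on the siOCT4-POVPC arrays and 2.70 to 3.60 on the others, so the dimmest detected values of the former arrays came out higher. The part of this in the results was not tested.

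**Figure D1:**
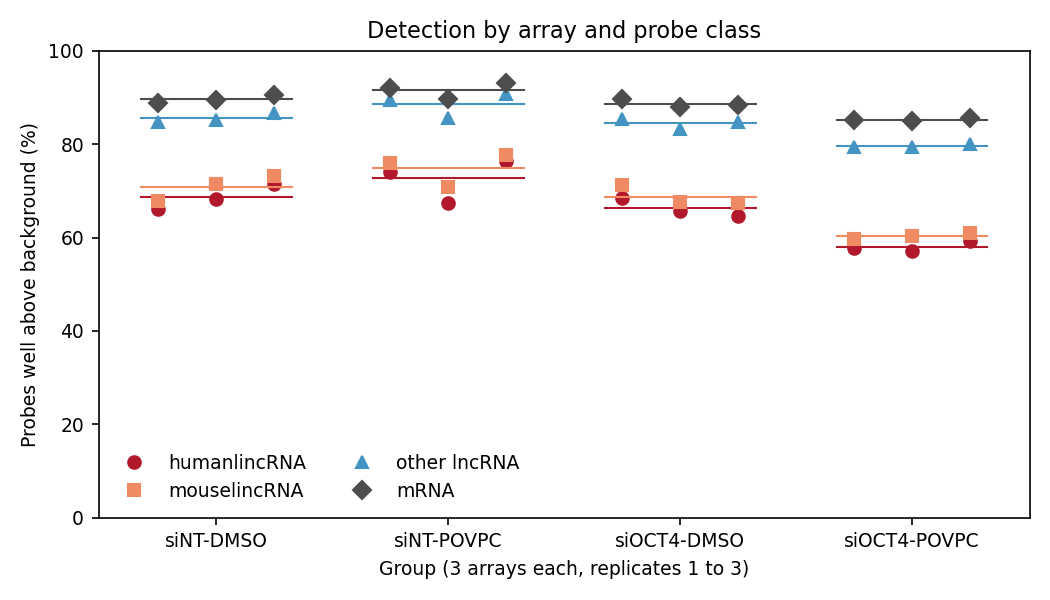
Share of probes well above background (percent, from 0 to 100) on each of the 12 arrays, by probe class, with a line at the mean of each group of 3. The humanlincRNA probes sit close to the mouselincRNA probes and below the other classes on every array, and all classes are lowest in siOCT4-POVPC, where humanlincRNA detection averaged 58.1%.

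Probes detected on 3 or more of the 12 arrays were tested, which held for 806 of the 1092 humanlincRNA probes (73.8%) and for 54506 of all probes. A probe was called where limma's adjusted p was under 0.05 and the change at least 1.5-fold. A probe detected mainly in the groups where it is high can pass this filter through them and then had to differ, so the counts are also given for probes detected on all 12 arrays. Of the probes named below with a call, humanlincRNA0495-, humanlincRNA0563+, humanlincRNA1492-, humanlincRNA1634-, humanlincRNA2019+, humanlincRNA2047+ and humanlincRNA2178+ were detected on fewer than 3 arrays of the siRNA where they were lower, and their adjusted p are a description. The tested probes came from 514 of the 557 regions. The spots of 3 humanlincRNA probes were missing on some arrays after outlier flags were applied. HumanlincRNA1505- and humanlincRNA1596+ each lacked 1 array, and humanlincRNA2246- lacked 9, among them all siOCT4-POVPC arrays, so comparisons with that group have 805 humanlincRNA probes and 54505 probes in all. Fewer cells that make a transcript and less transcript per cell cannot be told apart in these cultures.

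The comparison of siOCT4-DMSO with siNT-DMSO addresses the effect of the Oct4 knockdown without the oxidized phospholipid. In it 48 humanlincRNA probes rose (5.96%) and 20 fell (2.48%), beside a background of 4.40% higher and 2.19% lower among all tested probes. Of the 561 detected on all 12 arrays 36 rose (6.42%) and 17 fell (3.03%), beside 5.01% and 2.50% of all such probes. The mouselincRNA probes gave 6.89% and 3.34%, and the other lncRNA probes 4.68% and 2.30%. The median log2 fold change of the humanlincRNA probes was -0.09, and that of all tested probes was -0.06. The groups of arrays did not overlap in any of the 68 called probes. This is a description, since overlap was not counted over all called probes of the array. The measured means of called probes differed by 0.61 to 3.89 log2 units upward and by 0.62 to 2.33 downward, where the upper ends are from probes not well above background in 1 of the groups and are given below as bounds. In all, 37 of the 48 rises and 17 of the 20 falls were in probes detected on all 6 arrays.

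The largest difference of measured means was in humanlincRNA0563+, whose signal came out of the background. Its normalized log2 signal was 2.93, 2.37 and 2.37 in siNT-DMSO, with no array well above background, and 6.79, 6.56 and 5.99 in siOCT4-DMSO, with all 3 detected. It rose at least 8.62-fold (adjusted p = 3.54e-05), where the bound sets the siOCT4-DMSO mean against the weakest detected signal of each siNT-DMSO array. The same probe read 2.44, 2.36 and 3.45 in siNT-POVPC and 6.82, 6.90 and 6.78 in siOCT4-POVPC. Every siOCT4 array was thus above every siNT array.

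HumanlincRNA1110+, the opposite strand of the region beside Il1b, read 3.84, 4.18 and 4.25 in siNT-DMSO and 7.84, 7.69 and 6.07 in siOCT4-DMSO. It rose by 3.11 ± 0.37 log2 units (SE, adjusted p = 0.000601), and by 3.67 without siOCT4-DMSO replicate 3, the lowest of its group. The annotation lists no locus for the plus strand probe, which is tied to the region by its number. HumanlincRNA2014+ read 5.24, 5.41 and 5.18 against 8.89, 8.64 and 7.55, a rise of 3.08 ± 0.33 (SE, adjusted p = 0.000295), or 3.49 without that array. In both probes siOCT4-DMSO replicate 3 lay between the siNT arrays and the other siOCT4-DMSO arrays.

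HumanlincRNA2159- had the smallest error of the 6 rises with the largest measured differences. It read 9.13, 9.31 and 9.27 in siNT-DMSO and 11.66, 11.53 and 11.62 in siOCT4-DMSO, a rise of 2.37 ± 0.15 log2 units, or 5.15-fold (adjusted p = 1.04e-05). Here siOCT4-DMSO replicate 3 lay between the other arrays of its group. HumanlincRNA0200+ rose by 2.22 ± 0.30 (SE, adjusted p = 0.00143) from 3.97, 3.85 and 3.34 to 6.34, 6.17 and 5.32, and by 2.54 without siOCT4-DMSO replicate 3. HumanlincRNA1634+ rose by 2.21 ± 0.36 (SE, adjusted p = 0.00438) from 4.82, 4.86 and 4.47 to 7.58, 7.17 and 6.03, and by 2.66 without it. For these 6 probes the call held when any 1 of the 12 arrays was left out.

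HumanlincRNA0495- fell into the background. It read 5.28, 5.36 and 5.83 in siNT-DMSO and 3.19, 3.13 and 3.16 in siOCT4-DMSO, where no array was well above background, and it was at least 4.07-fold lower (adjusted p = 0.000481). In siNT-POVPC it read 4.48, 3.57 and 4.02, below all siNT-DMSO arrays. HumanlincRNA2265- fell by 2.23 ± 0.37 log2 units (SE, adjusted p = 0.00439) from 6.91, 7.75 and 8.17 to 5.24, 4.99 and 5.91. Both calls held on leaving out each array in turn.

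Among the other falls, humanlincRNA0660- fell by 1.62 log2 units (adjusted p = 0.0142) and humanlincRNA1287- by 1.25 (adjusted p = 0.0151). HumanlincRNA2178+ was called lower (adjusted p = 0.0101) and was detected on 1 siOCT4-DMSO array, so no size is given. HumanlincRNA2047+ read 4.43, 4.5 and 5.14 in siNT-DMSO and 2.37, 3.41 and 3.77 in siOCT4-DMSO, where it was well above background on replicate 3 alone, and was called lower (adjusted p = 0.0338). The call for humanlincRNA2047+ was kept in 7 of the 12 fits without 1 array, for humanlincRNA0660- and humanlincRNA1287- in 10, and for humanlincRNA2178+ in all 12.

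**Figure D2:**
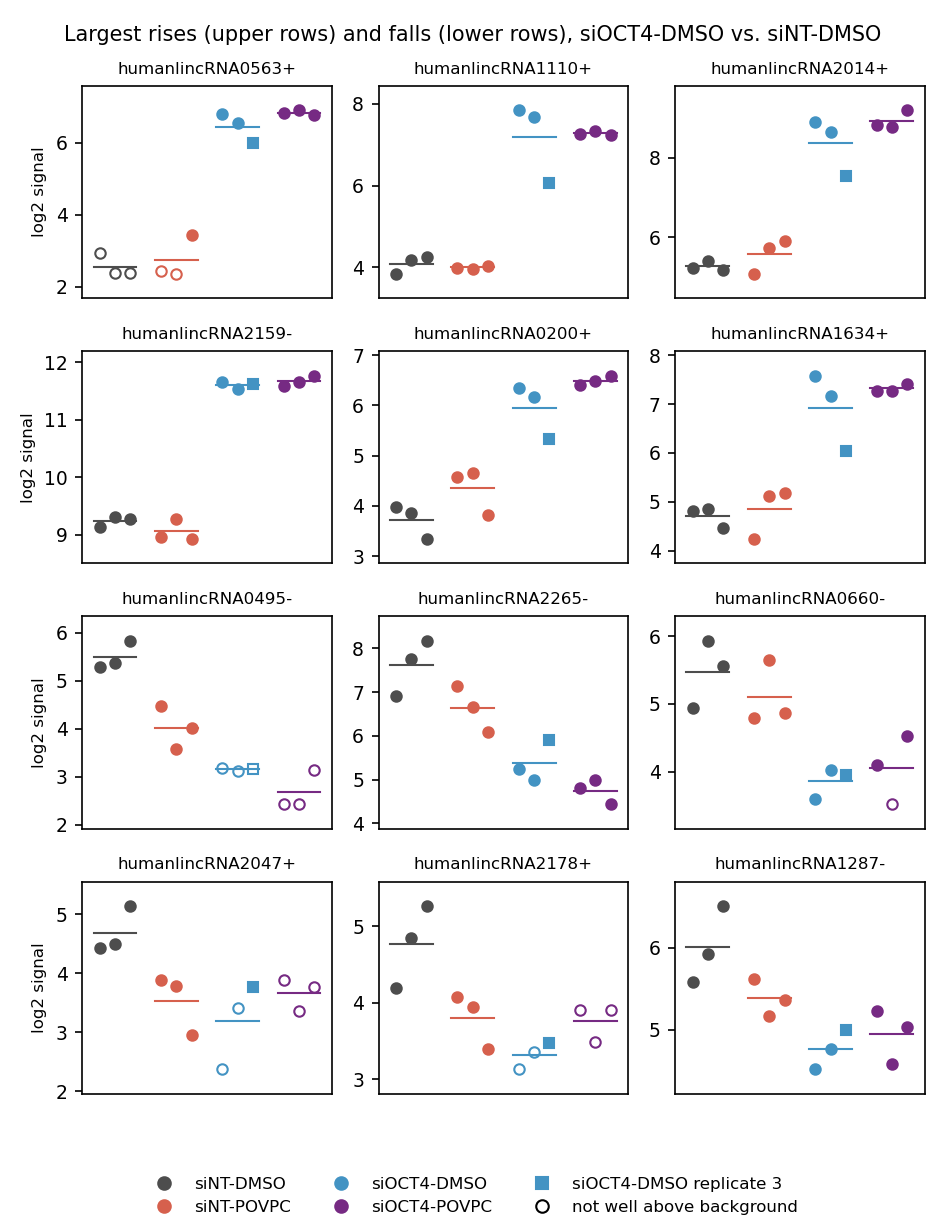
Normalized log2 signal on each of the 12 arrays for the 6 rises (upper 2 rows) and 6 falls (lower 2 rows) with the largest differences of measured means called in siOCT4-DMSO vs. siNT-DMSO; each panel has its own axis, lines are group means, open points were not well above background, and the square is siOCT4-DMSO replicate 3. HumanlincRNA0563+ goes from 2.37 to 2.93 in siNT-DMSO to 5.99 to 6.79 in siOCT4-DMSO, and humanlincRNA2159- is tight in every group.

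Of the 48 rises 25, and of the 20 falls 5, were called in every fit that left out 1 array. Without siOCT4-DMSO replicate 3 the counts were 83 higher (10.3%) and 18 lower (2.24%), beside 7.93% and 3.04% of all tested probes, and they included 47 of the 48 rises and 15 of the 20 falls. Leaving out replicate 3 of siNT-DMSO gave 28 and 5 (2.41% and 0.772% of all tested probes), and leaving out replicate 1 of siOCT4-DMSO gave 29 and 9 (2.47% and 1.06% of all). The split between rises and falls depended on the scaling. Scaling each array to its 75th percentile gave 31 higher (3.85%) and 66 lower (8.19%), beside 3.77% and 5.18% of all tested probes, whose median log2 fold change was then -0.21. Centring each array on its median gave 48 (5.96%) and 33 (4.09%), beside 6.16% and 2.63% of all. Normexp background correction gave 24 (2.98%) and 9 (1.12%), beside 3.27% and 1.42% of all, and held 24 of the 48 rises and 7 of the 20 falls. A fit to the 2 groups alone gave 16 and 2, beside 1.12% and 0.308% of all, and the methods' t-test after Benjamini-Hochberg adjustment gave 1 and 0, beside 0.121% and 0.011% of all.

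The comparison of siOCT4-POVPC with siNT-POVPC addresses the knockdown in cells given the oxidized phospholipid. In it 85 humanlincRNA probes rose (10.6%) and 59 fell (7.33%), beside 7.18% higher and 4.08% lower among all tested probes. Of the 560 detected on all 12 arrays and tested here 64 rose (11.4%) and 39 fell (6.96%), beside 7.84% and 3.75% of all such probes. The mouselincRNA probes gave 11.5% and 8.77%, and the other lncRNA probes 7.35% and 4.30%. The median log2 fold change was -0.07 for humanlincRNA probes and -0.08 for all tested probes. Again the groups of arrays did not overlap in any of the 144 called probes, which was likewise not counted over all called probes. Each group lay on a slide of its own. With slide as a term in the model, where siOCT4-DMSO replicate 3 alone joins the slides, 105 humanlincRNA probes were higher (13%) and 42 lower (5.22%), beside 9.75% and 8.17% of all tested probes, and these held 59 of the 85 rises and 13 of the 59 falls.

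HumanlincRNA0563+ again had the largest difference of measured means, 4.08 ± 0.30 log2 units (SE, adjusted p = 1.66e-05). Only 1 of the 3 siNT-POVPC arrays was well above background, so the size of this rise rests on undetected values. HumanlincRNA2014+ rose by 3.34 ± 0.33 (SE, adjusted p = 0.000108), from 5.09, 5.73 and 5.92 to 8.81, 8.76 and 9.18. HumanlincRNA1110+ rose by 3.28 ± 0.37 (SE, adjusted p = 0.00028), from 3.99, 3.96 and 4.04 to 7.27, 7.34 and 7.23. These 3 probes were the same that led the rises in DMSO, and in each the lowest siOCT4-POVPC array was over 2 log2 units above the highest siNT-POVPC array.

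HumanlincRNA1492- was not well above background on any of the 6 siNT arrays, where it read 2.36 to 2.63. It read 4.82, 5.36 and 5.46 in siOCT4-POVPC and rose at least 4.77-fold (adjusted p = 0.00048). In siOCT4-DMSO it read 5.44, 4.80 and 3.74, at least 2.50-fold above siNT-DMSO (adjusted p = 0.00333). HumanlincRNA0324+ rose by 2.78 ± 0.23 log2 units (SE, adjusted p = 4e-05), from 4.12, 3.73 and 3.37 to 6.51, 6.39 and 6.65. HumanlincRNA2197- rose by 2.67 ± 0.32 (SE, adjusted p = 0.000397), from 3.98, 3.08 and 3.01, with 2 arrays detected, to 5.92, 5.88 and 6.28. The calls of humanlincRNA0324+ and humanlincRNA2197- held on leaving out each array in turn, and both were also called in DMSO.

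Many falls in POVPC were of dim probes. In 19 of the 59, no siOCT4-POVPC array was well above background, and in 9 of them all 3 of those arrays were at the floor of 5 intensity units. HumanlincRNA0247- fell by 2.18 ± 0.48 log2 units (SE, adjusted p = 0.0135), from 7.45, 6.78 and 6.85 to 5.17, 4.86 and 4.5, with all 6 arrays detected. HumanlincRNA2265- fell by 1.88 ± 0.37 (SE, adjusted p = 0.00755), from 7.14, 6.65 and 6.10 to 4.80, 5.0 and 4.44, and it was the only one of the 6 falls with the largest measured differences in DMSO among the 6 here. HumanlincRNA0323+ fell by 1.56 (adjusted p = 0.00676) and humanlincRNA0889+ by 1.55 (adjusted p = 0.00446). HumanlincRNA1172- read 3.95, 3.99 and 4.67 in siNT-POVPC and 2.44, 2.43 and 2.43 in siOCT4-POVPC, not well above background, at least 1.14-fold lower (adjusted p = 0.00111). HumanlincRNA0071+ read 4.40, 3.48 and 4.09 and then 2.44, 2.43 and 2.43 (adjusted p = 0.0253), and no fold is given because its mean in siNT-POVPC lies under the weakest detected signal of the siOCT4-POVPC arrays. With 1 array left out, the call was kept in 10 of 12 fits for humanlincRNA0247- and in 7 for humanlincRNA0071+.

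In POVPC 51 of the 85 rises and 17 of the 59 falls were called in every fit without 1 array. The counts were 60 and 21 without siNT-POVPC replicate 1, where 4.47% and 1.72% of all tested probes were called. Leaving out siOCT4-POVPC replicate 1 gave 62 and 26 (4.81% and 1.66% of all), replicate 2 gave 65 and 30 (4.79% and 1.94%), and replicate 3 gave 56 and 25 (4.02% and 1.33%). Scaling moved the split more than in DMSO, to 57 higher (7.08%) and 232 lower (28.8%) with the 75th percentile, and the falls of all tested probes grew with it, to 6.25% higher and 15.6% lower with a median of -0.27. Median centring gave 68 (8.45%) and 177 (22.0%), beside 8.01% and 11.1% of all. Under normexp background correction the counts were 42 (5.22%) and 10 (1.24%), beside 4.87% and 1.23% of all, and these held 41 of the 85 rises and 9 of the 59 falls.

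The knockdown comparisons in DMSO and in POVPC share no arrays, and the changes of the humanlincRNA probes ran alike in them. Of the 48 rises in DMSO, 43 (89.6%) were also called higher in POVPC, where they were 50.6% of the 85 rises. Of the 20 falls in DMSO, 8 (40.0%) were also called lower in POVPC, 13.6% of the 59 falls. No probe was called in opposite directions. Among the DMSO calls, 47 of 48 rises and 17 of 20 falls had the same sign in POVPC. The median log2 fold change of the 48 rises was 1.31 in DMSO and 1.47 in POVPC, and that of the 20 falls was -1.06 and -0.60. Over 805 probes the fold changes correlated with r = 0.68, or 0.70 without siOCT4-DMSO replicate 3, a description across probes that share the normalization. Shared calls, signs and correlation were not counted over all tested probes, so this agreement is not shown to be particular to humanlincRNA probes. Without siOCT4-DMSO replicate 3, 59 of 83 rises (71.1%) and 8 of 18 falls (44.4%) in DMSO were also called in POVPC. With 75th percentile scaling this held for 29 of 31 rises (93.5%) and 48 of 66 falls (72.7%). With the slide as a block it held for 61 of 83 rises (73.5%) and 5 of 18 falls (27.8%).

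**Figure D3:**
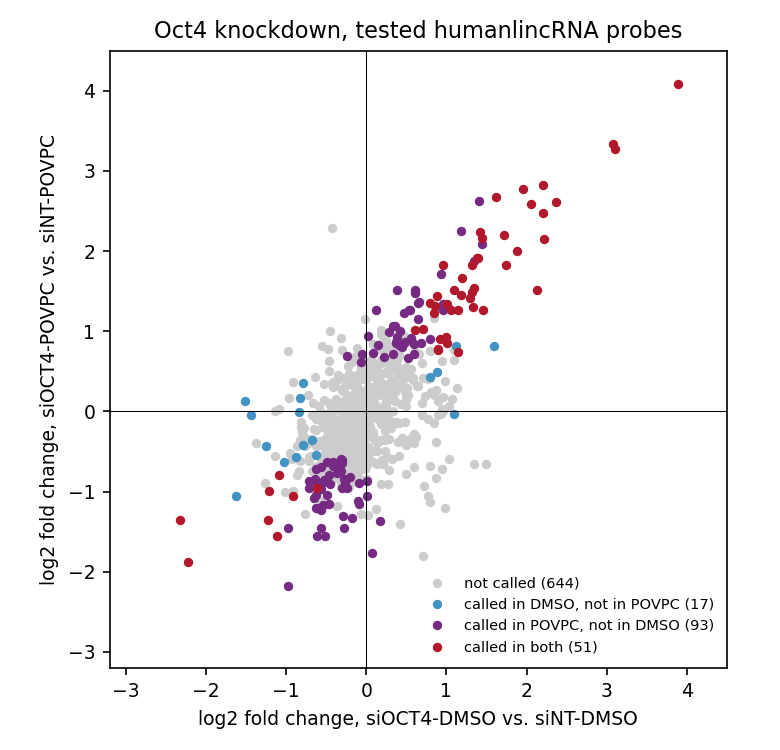
Log2 fold change with the Oct4 knockdown in DMSO (horizontal axis) and in POVPC (vertical axis) for 805 humanlincRNA probes, coloured by call. The 51 probes called in both lie in the lower left and upper right, and humanlincRNA0563+ is at the top right with 3.89 and 4.08, differences of measured means that are not sizes of change, since it was detected on none of the siNT-DMSO arrays and on 1 siNT-POVPC array.

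Some probes passed from no detected array of a group to all 3, or the other way. With the knockdown in DMSO 6 probes appeared (0.549%), among them humanlincRNA0563+ and humanlincRNA1492-, and 9 were no longer detected (0.824%), among them humanlincRNA0495-. These shares were 0.156% and 0.939% for mouselincRNA, 0.172% and 0.317% for other lncRNA and 0.148% and 0.170% for mRNA probes. In POVPC 2 probes appeared (0.183%), humanlincRNA1492- and humanlincRNA1739-, beside 0.0% of mouselincRNA, 0.0629% of other lncRNA and 0.0492% of mRNA probes. There 78 (7.14%) were no longer detected, beside 7.36% of mouselincRNA, 3.94% of other lncRNA and 2.67% of mRNA probes. The weakest detected signals were higher on the siOCT4-POVPC arrays, as given above, and in 42 of these 78 probes the signals of the groups overlapped. Among the 9 lost in DMSO this held for 2. HumanlincRNA1739-, outside the rule for named probes and chosen after its values were seen, read 2.52, 2.52 and 2.45 in siNT-POVPC and 4.16, 4.32 and 4.17 in siOCT4-POVPC.

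The strands of a region were measured by separate probes, and their fold changes were not correlated. Of the 535 regions with both strands on the array, 292 had both tested, 201 had 1, and 42 had neither. In siOCT4-DMSO vs. siNT-DMSO, 46 of these 292 regions had at least 1 strand called and 2 had both. In siOCT4-POVPC vs. siNT-POVPC, 94 of 291 had at least 1 strand called and 12 had both, 7 in the same direction and 5 in opposite directions. Fold changes of the plus and minus probes of a region correlated with r = 0.08 and -0.01, and had the same sign in 54.8% and 53.3% of the regions.

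Region 0200 rose on both strands with the knockdown in DMSO. Its minus strand probe read 5.81, 5.89 and 5.40 in siNT-DMSO and 6.68, 6.50 and 6.27 in siOCT4-DMSO, a rise of 0.79 (adjusted p = 0.0284) beside 2.22 on the plus strand. Both humanlincRNA0538 strands rose, by 0.71 (adjusted p = 0.0347) on the plus strand and 1.34 (adjusted p = 0.0125) on the minus strand in DMSO, and by 1.03 (adjusted p = 0.00338) and 1.54 (adjusted p = 0.00393) in POVPC. In DMSO the call was kept in 4 of 12 fits without 1 array for humanlincRNA0538+, in 10 for humanlincRNA0538- and in 9 for humanlincRNA0200-. HumanlincRNA0538- was detected on 2 of the 3 siNT-DMSO arrays. Region 2052 rose in POVPC by 1.42 (adjusted p = 0.00872) on the plus strand. Its minus strand was called higher (adjusted p = 0.0119) but was well above background on 1 siOCT4-POVPC and 2 siNT-POVPC arrays, so no size is given. In these regions the strands went the same way.

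Region 1634 was called in opposite directions on its strands in POVPC. Its plus strand read 4.24, 5.11 and 5.19 in siNT-POVPC and 7.27, 7.27 and 7.42 in siOCT4-POVPC, a rise of 2.48 (adjusted p = 0.00149). The minus strand read 3.74, 3.44 and 4.0 and then 2.44, 2.43 and 2.43, where it was not well above background, and it was called lower (adjusted p = 0.00151). Region 2019 was the reverse, with a minus strand that rose by 2.24 (adjusted p = 0.00137) and a plus strand that was called lower at the same floor (adjusted p = 0.0384). Its minus strand was well above background on 2 of the 3 siNT-POVPC arrays, so the size of that rise rests partly on an undetected value. No fold is given for the lower strands, whose siNT-POVPC means lie under the weakest detected signal of the siOCT4-POVPC arrays. In 4 of the 5 regions with opposite calls no siOCT4-POVPC array detected the lower strand. With a floor of 20 intensity units the log2 fold change of the lower strand was -0.03 in both named regions and was not called. The plus strand call of region 2019 was kept in 4 of 12 fits without 1 array.

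**Figure D4:**
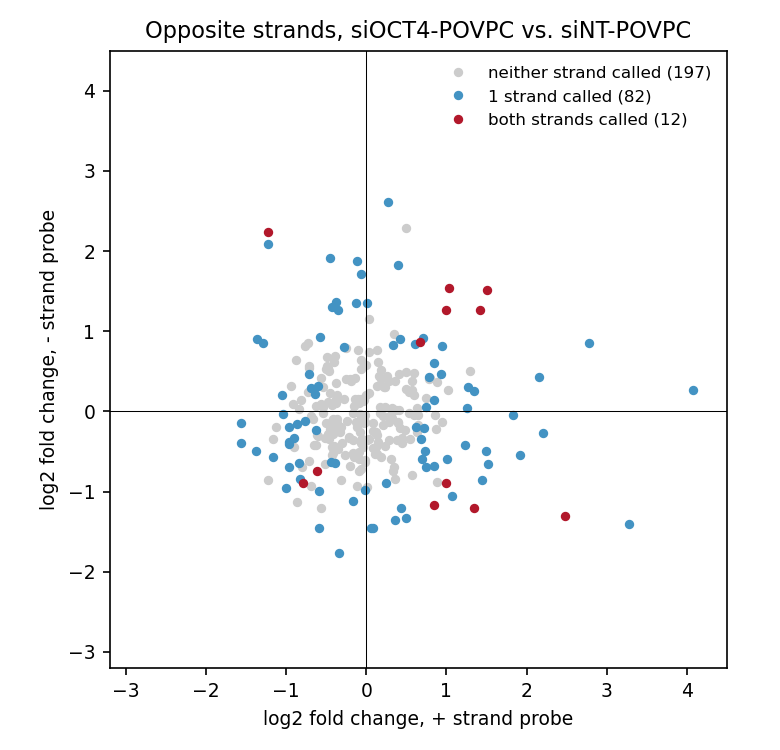
Log2 fold change of the plus strand probe (horizontal axis) and the minus strand probe (vertical axis) of 291 regions in siOCT4-POVPC vs. siNT-POVPC, coloured by how many strands were called. The points show no slope (r = -0.01), and the 12 regions with both strands called lie in the upper right, lower left and both opposite-sign quadrants.

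The comparison of siNT-POVPC with siNT-DMSO addresses the oxidized phospholipid in cells with Oct4. No humanlincRNA probe was called in either direction, beside 0.0055% higher and 0.00183% lower among all tested probes, and the smallest adjusted p was 0.104. At an unadjusted p under 0.05 and 1.5-fold, limma gave 15 higher (1.86%) and 49 lower (6.08%), beside 4.92% and 5.45% of all tested probes. The methods' t-test gave 12 (1.49%) and 21 (2.61%) at an unadjusted p, beside 1.99% and 2.45% of all tested probes, and none after Benjamini-Hochberg adjustment. Without siNT-DMSO replicate 1, 1 probe was called higher (0.124%) and 8 lower (0.994%), beside 0.473% and 0.451% of all, and without siNT-POVPC replicate 3, 1 was called higher, beside 0.420% of all.

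The probes with the smallest adjusted p are given as values. HumanlincRNA0495- read 5.28, 5.36 and 5.83 in siNT-DMSO and 4.48, 3.57 and 4.02 in siNT-POVPC, a log2 fold change of -1.47 ± 0.27 (SE, adjusted p = 0.104). HumanlincRNA2263- read 5.97, 6.56 and 6.54 and then 5.18, 5.02 and 5.04, a log2 fold change of -1.27 ± 0.24 (SE, adjusted p = 0.112). In siOCT4 cells humanlincRNA2263- read 6.04, 6.53 and 6.87 with DMSO and 6.05, 6.37 and 6.62 with POVPC, a log2 fold change of -0.13 (adjusted p = 0.847), or 0.07 without siOCT4-DMSO replicate 3. HumanlincRNA0367+ had a log2 fold change of -1.07 ± 0.22 (SE, adjusted p = 0.117). The 3 with the smallest adjusted p among higher values, humanlincRNA0539+, humanlincRNA2259- and humanlincRNA0696+, are among the 9 with a listed locus.

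All 9 listed probes had a higher mean in siNT-POVPC than in siNT-DMSO, which their selection on these samples fixes, and none was called. HumanlincRNA0539+ read 4.95, 5.50 and 5.32 and then 6.38, 6.07 and 7.16, with a log2 fold change of 1.28 ± 0.25 (SE, adjusted p = 0.112). HumanlincRNA2259- read 2.69, 2.37 and 2.54 in siNT-DMSO, never well above background, and 3.71, 3.73 and 3.68 in siNT-POVPC, always well above it (adjusted p = 0.114). HumanlincRNA1110- read 5.25, 3.25 and 4.15 and then 6.43, 5.82 and 6.93, with a log2 fold change of 2.17 ± 0.70 (SE, adjusted p = 0.214). The groups did not overlap in any of these 3 probes, and the siNT-DMSO arrays of humanlincRNA1110-, of which 2 were well above background, were spread over 2 log2 units.

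In siOCT4 cells the same 9 probes were split by 1 array. In 8 of them siOCT4-DMSO replicate 3 was above the mean of replicates 1 and 2, in 5 by over 1 log2 unit, with a median difference of 1.66. Over all tested humanlincRNA probes this array ran the other way, with 37 above and 70 below by over 1 log2 unit and a median difference of -0.24. It was among the 3 highest of all 12 arrays in 7. HumanlincRNA2144- read 2.37 and 2.38 in siOCT4-DMSO replicates 1 and 2, not well above background, and 6.63 in replicate 3, the highest of the 12 arrays, and then 2.44, 3.57 and 2.43 in siOCT4-POVPC. HumanlincRNA1395+ read 4.06, 3.98 and 6.27 in siOCT4-DMSO and 4.90, 4.07 and 4.48 in siOCT4-POVPC. HumanlincRNA1756+ read 4.93, 4.36 and 6.31, and then 4.89, 5.03 and 4.75. In these 3 probes the other siOCT4 arrays stayed below the 3 siNT-POVPC arrays or, in humanlincRNA1395+, overlapped the lowest of them.

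HumanlincRNA0052+ was the listed probe with the clearest change with the knockdown. It read 4.93, 4.82 and 5.58 in siNT-DMSO, 6.33, 5.82 and 6.19 in siNT-POVPC, 7.53, 7.33 and 6.85 in siOCT4-DMSO, and 7.50, 7.51 and 7.87 in siOCT4-POVPC. With the knockdown it rose by 2.13 ± 0.25 log2 units in DMSO (SE, adjusted p = 0.000568) and by 1.51 ± 0.25 in POVPC (SE, adjusted p = 0.00314). Its opposite strand, humanlincRNA0052-, rose by 1.52 ± 0.27 in POVPC (SE, adjusted p = 0.00492) and had a log2 fold change of 0.38 in DMSO (adjusted p = 0.433). HumanlincRNA2259- rose with the knockdown in DMSO at least 1.22-fold (adjusted p = 0.0188), while in POVPC the groups overlapped. The listed probes were selected on the siNT arrays, against which these knockdown changes are measured, so their adjusted p here are a description. For humanlincRNA1110-, which read 3.92, 3.59 and 6.41 in siOCT4-DMSO with 2 arrays detected, the changes with the knockdown were 0.42 in DMSO (adjusted p = 0.756), or -0.46 without siOCT4-DMSO replicate 3, and -1.40 in POVPC (adjusted p = 0.222), beside 3.11 and 3.28 for its opposite strand.

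**Figure D5:**
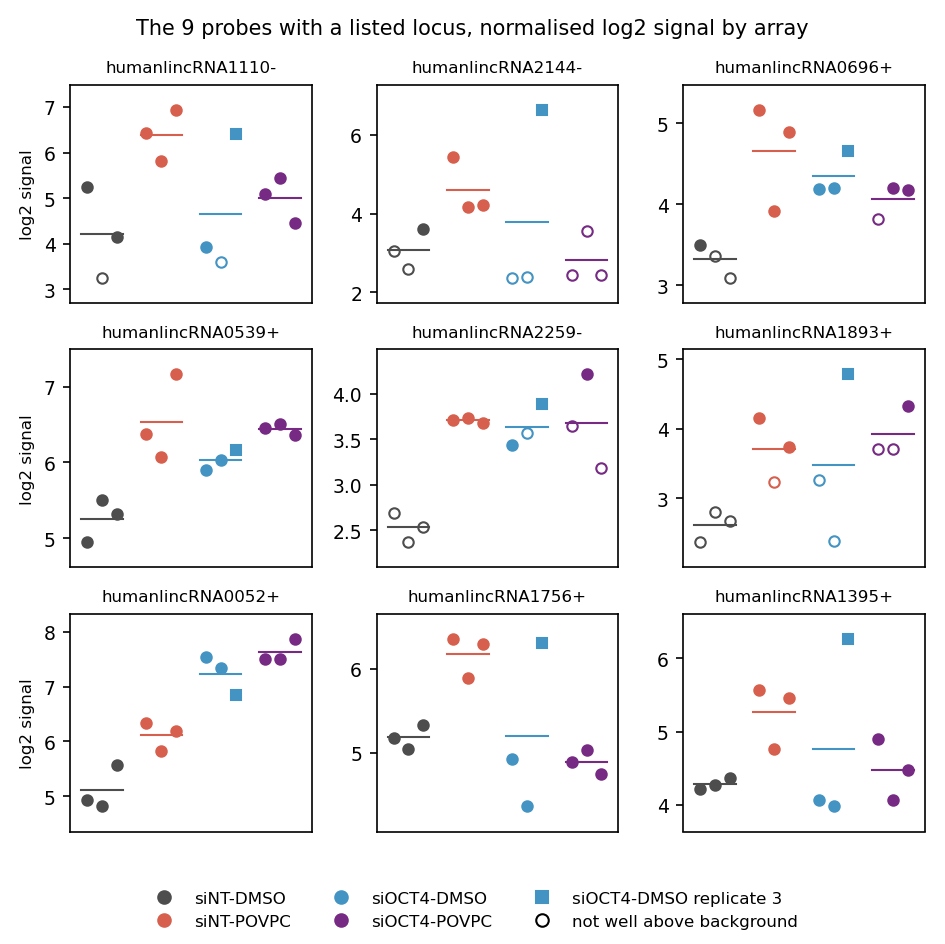
Normalized log2 signal on each of the 12 arrays for the 9 humanlincRNA probes with a listed locus; each panel has its own axis, lines are group means, open points were not well above background, and the square is siOCT4-DMSO replicate 3. The square is the highest point of all for humanlincRNA2144- (6.63), humanlincRNA1893+ (4.78) and humanlincRNA1395+ (6.27).

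The annotation also lists 2 further probes under humanlincRNA symbols whose own names do not start so, and they are not counted among the 1092. Like the other listed probes, they were selected for a rise with POVPC on these samples, which fixes their direction. The probe for humanlincRNA0050, at chr3:149515530-149516277 on the minus strand, read 6.79, 6.53 and 7.15 in siNT-DMSO and 9.23, 8.44 and 9.11 in siNT-POVPC, a log2 fold change of 2.1 ± 0.56 (SE, adjusted p = 0.171). In siOCT4-DMSO it read 6.27, 6.95 and 9.05, with replicate 3 apart as above. Over the 12 fits without 1 array its adjusted p for POVPC in siNT cells ran from 0.0472 to 0.422, with a call in 1. That fit lacked siOCT4-DMSO replicate 3, which is in neither siNT group, and the log2 fold change stayed at 2.1. The probe for humanlincRNA0173, at chr1:186041759-186042175 on the minus strand, read 3.94, 2.37 and 3.02 in siNT-DMSO, with 1 array detected, and 5.21, 4.98 and 4.25 in siNT-POVPC (adjusted p = 0.256), and no size is given.

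The comparison of siOCT4-POVPC with siOCT4-DMSO addresses the oxidized phospholipid in cells with the knockdown. No humanlincRNA probe was called, beside 0.00183% higher and 0.0% lower among all tested probes, and the smallest adjusted p was 0.0636. At an unadjusted p under 0.05 and 1.5-fold, limma gave 11 higher (1.37%) and 64 lower (7.95%), beside 3.64% and 5.36% of all tested probes. The methods' t-test after Benjamini-Hochberg adjustment gave 1 lower, beside 0.0055% of all. With slide in the model 34 probes were higher (4.22%) and 22 lower (2.73%), beside 4.52% and 4.85% of all tested probes. This fit compares siOCT4-DMSO with siOCT4-POVPC through siOCT4-DMSO replicate 3 alone, which stood apart from its group. Without that array none was called in either direction, while 2 were called lower on leaving out replicate 2 of siNT-DMSO or replicate 3 of siNT-POVPC (0.00734% and 0.0055% of all tested probes), and 1 on leaving out replicate 1 of siOCT4-DMSO (0.0055% of all).

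The smallest adjusted p were in dim probes. Among them humanlincRNA1172- read 4.15, 4.60 and 5.05 in siOCT4-DMSO and was at the floor in siOCT4-POVPC (2.44, 2.43 and 2.43, adjusted p = 0.0636). HumanlincRNA0878- read 3.98, 3.70 and 3.66 and then 2.44, 2.43 and 2.43 (adjusted p = 0.0636), and humanlincRNA1634- had an adjusted p of 0.189. The groups did not overlap in these probes. The higher values were small, with log2 fold changes of 0.80 for humanlincRNA1050+ (adjusted p = 0.246), 0.62 for humanlincRNA2403+ and 0.64 for humanlincRNA2487- (both adjusted p = 0.253). HumanlincRNA2403+ and humanlincRNA2487- both rose with the knockdown, by 1.40 (adjusted p = 0.000998) and 0.96 (adjusted p = 0.0118) in DMSO and by 1.92 (adjusted p = 8e-05) and 1.83 (adjusted p = 0.000154) in POVPC.

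The difference between the POVPC changes in siOCT4 and in siNT cells was tested as an interaction. No humanlincRNA probe passed an adjusted p of 0.05, beside 0.0% of all tested probes, and the smallest adjusted p was 0.562. At an unadjusted p, limma gave 42 in which the change was more positive in siOCT4 cells and 39 in which it was more negative, beside 8.37% of all tested probes in either direction. With slide in the model, which again rests on siOCT4-DMSO replicate 3, 18 (2.24%) and 16 (1.99%) were called, beside 2.00% and 2.36% of all tested probes. The POVPC comparisons in siNT and siOCT4 cells share no arrays, and over 805 probes their fold changes correlated with r = 0.09, or 0.16 without siOCT4-DMSO replicate 3. Of the 15 probes higher with POVPC in siNT cells at an unadjusted p, 7 had the same sign in siOCT4 cells, and of the 49 lower, 34 did. Without siOCT4-DMSO replicate 3 these counts were 14 of 28 and 35 of 50.

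Of 19 marker genes set for smooth muscle, endothelial cells, macrophages, fibroblasts and the siRNA target, probes for 4 could be named, all from a list that the study chose for a change with POVPC in these cells. Tagln, an actin-binding protein of contractile smooth muscle, was well above background on 11 arrays with a normalized log2 signal of 3.99 to 5.54, and Smtn, which encodes smoothelin, on all 12 with 4.38 to 5.54. Tagln fell with the knockdown in DMSO by 0.79 (adjusted p = 0.0317), and its log2 fold change in POVPC was -0.35 (adjusted p = 0.259). Those of Smtn were -0.55 in DMSO (adjusted p = 0.173) and 0.39 in POVPC (adjusted p = 0.301). Col1a1, a fibrillar collagen of fibroblasts and of modulated smooth muscle cells, read 8.42 to 11.81, and Pdgfra, a growth factor receptor of fibroblasts, 2.69 to 4.65. Pdgfra, detected on 9 of the 12 arrays, was called higher with the knockdown in POVPC (adjusted p = 0.0012), with measured means of 2.73 in siNT-POVPC and 4.46 in siOCT4-POVPC, and had a log2 fold change of 0.70 in DMSO (adjusted p = 0.114). Those of Col1a1 were 0.37 in POVPC (adjusted p = 0.663) and -0.19 in DMSO (adjusted p = 0.85). The list was chosen on arrays that the knockdown comparisons share, so the adjusted p of these markers are a description. Markers of endothelial cells and macrophages were not analysed here, and the part of other cell types in the humanlincRNA changes was not tested.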

How the data were processed

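Total RNA of 12 MASMC samples was labeled with Cy3 and hybridized to Agilent 1-colour arrays. The authors deposited scanner output of Agilent Feature Extraction 11.0.1.1 (per the labels), with intensity values before normalization between arrays, and a table of log2 values that their methods call quantile normalized. The authors' fold changes and p-values in the supplements were not used; only sequences, loci and probe names were taken. Here processed signals under 5 were set to 5, spots with outlier flags were set to missing, and quantile normalization of log2 values was done across all 12 arrays together. Limma 3.58.1 (R 4.3.3) was fitted with a mean for each of 4 groups to the 54506 probes detected (well above background) on 3 or more arrays, with Benjamini-Hochberg adjustment over all of them. The script was tested on simulated data. The methods' t-test is the unpaired test named in the notes to the study's lncRNA lists; the methods text names none for these arrays. Exact permutation tests used scipy. No sample was left out and no humanlincRNA spot was saturated; the number of arrays limits the precision. Named in each comparison were the 6 rises and falls with the largest differences of measured means among calls without overlap between groups or, with no call, the 3 smallest adjusted p in each direction, the probes with a listed locus, and up to 4 strand pairs called together. A fold is given as "at least" where no array of the dimmer group was well above background: the mean of the brighter group was set against the higher, per array, of the weakest detected signal and the probe's own. The probes, lists and rules were chosen with earlier results of these data known.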

Additional observations from a re-analysis of the deposited data

How the results depend on the processing

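For siOCT4-POVPC vs. siOCT4-DMSO, 56 humanlincRNA probes were called with the slide as a block and 155 on slide 2 alone (11.6% higher and 7.70% lower, beside 13.6% and 14.6% of all tested probes), and for the interaction 34 with the slide as a block. These fits rest on siOCT4-DMSO replicate 3 as the only DMSO array of slide 2, which is assumed to vary like the others although it stood apart; the cause was not tested. In siOCT4-POVPC vs. siOCT4-DMSO 1 was called lower with 75th percentile scaling or median centring, beside 0.0275% and 0.0422% of all tested probes. With the knockdown, 33 were called in DMSO and 52 in POVPC under normexp, 289 in POVPC with 75th percentile scaling, 245 with median centring, and 18 in DMSO with only the 2 groups compared, which uses fewer arrays. At an unadjusted p limma gave 64, 156, 75, 247 and 81 for siNT-POVPC vs. siNT-DMSO, siOCT4-DMSO vs. siNT-DMSO, siOCT4-POVPC vs. siOCT4-DMSO, siOCT4-POVPC vs. siNT-POVPC and the interaction. The 156 were 89 higher and 67 lower of 806, beside 9.75% and 6.65% of all tested probes. The 247 were 14.7% higher and 16% lower, beside 10.6% and 9.25% of all. The methods' t-test gave 33, 104, 45 and 205 for the first 4 comparisons at an unadjusted p, and 0, 1, 1 and 115 after Benjamini-Hochberg adjustment. The 104 were 7.58% higher and 5.34% lower, beside 5.45% and 3.83% of all tested probes. The 45 were 1.12% and 4.47%, beside 2.53% and 2.95% of all. The 205 were 13% and 12.4%, beside 9.99% and 8.57% of all. The 115 were 8.82% and 5.47%, beside 6.08% and 3.24% of all. Leaving out 1 array gave 0 to 9, 33 to 101, 0 to 2 and 81 to 182 calls in the same 4 comparisons and 0 in the interaction. The 182, without siOCT4-DMSO replicate 3, were 12.4% higher and 10.2% lower, beside 9.01% and 6.35% of all tested probes.

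Median log2 fold changes in siNT-POVPC vs. siNT-DMSO were -0.03 under normexp, 0.00 with a floor of 20, -0.04 with no filter, -0.05 with median centring, and -0.14 to -0.06 without 1 array. In siOCT4-DMSO vs. siNT-DMSO they were -0.35 with 75th percentile scaling, -0.03 under normexp, 0.00 with a floor of 20 or no filter, and -0.19 with median centring. In siOCT4-POVPC vs. siOCT4-DMSO they were -0.19, 0.01 with no filter, -0.16 with median centring, 0.06 with the slide as a block or on slide 2 alone, and -0.13 to -0.02 without 1 array. In siOCT4-POVPC vs. siNT-POVPC they were -0.48, -0.02 under normexp or for probes detected on all 12 arrays, -0.03 with a floor of 20, 0.00 with no filter, -0.36 with median centring and 0.12 with the slide as a block. Detection by the scanner's weaker criterion, a signal positive and significant, was 87.8% (DMSO) and 90.6% (POVPC) in siNT cells and 85.8% and 79.5% in siOCT4 cells, and 55.9% of probes in siOCT4-POVPC exceeded the 99th percentile of the negative controls. By this control criterion the siOCT4-POVPC arrays had 56.3%, 48.1% and 63.4%. With 62.4% on siNT-DMSO replicate 1, they no longer all lay below every other array.

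Over 44 called values of named probes, 1068 of 1190 alternatives kept the call, 122 lost it and none reversed. Over 29 uncalled values, 61 of 797 alternatives gained a call and 14 turned the sign. The signs turned for humanlincRNA0878- and humanlincRNA1634- in siOCT4-POVPC vs. siOCT4-DMSO (0.01 each with a floor of 20), and, in siNT-POVPC vs. siNT-DMSO, humanlincRNA1110+ (0.00 under normexp, 0.05 with a floor of 20) and humanlincRNA0539- (0.01 with a floor of 20, 0.07 with median centring, -0.22 to 0.16 on leaving out 1 array). In siOCT4-DMSO vs. siNT-DMSO humanlincRNA1110- gave -0.46 with the slide as a block, on slide 1 alone or without siOCT4-DMSO replicate 3, and up to 0.95 without 1 array. In siOCT4-POVPC vs. siOCT4-DMSO humanlincRNA2263- gave -0.35 to 0.07 without 1 array. Slide 1 alone, slide 2 alone and median centring were chosen after seeing the data. Normexp was planned, and it was run on the median signal because the files hold no mean signal.

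With the replicate number as a block 60 probes were called in siOCT4-DMSO vs. siNT-DMSO, 133 in siOCT4-POVPC vs. siNT-POVPC, and 0 in the others. The 60 were 5.71% higher and 1.74% lower, beside 3.81% and 1.71% of all tested probes. The 133 were 10.1% and 6.46%, beside 6.62% and 3.63% of all. Deviations of same-numbered arrays correlated at -0.199 to 0.362, over 0.1 in 2 of 12 pairs. In siOCT4-POVPC vs. siNT-POVPC each siOCT4-POVPC array correlated best with its own number (0.072 to 0.097), a hint from the data and not from the design. In no comparison were all 3 pairs over 0.1, so the numbers were not taken to pair the samples. Probes near the background are a limit: 286 humanlincRNA probes were not tested, and in siOCT4-POVPC values of dim probes lie at the floor.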
